A study of Mus musculus with 5480 samples.

Results

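Expression of 9 receptor genes of airway and vessel tone was followed in the mesenchymal cells of the mouse lung, the fibroblasts, muscle cells and pericytes that form its connective tissue and the walls of its airways and vessels. The genes were taken by name from the count table, which holds 18072 genes, and all 9 had a row: the muscarinic acetylcholine receptors Chrm2 and Chrm3, the endothelin receptors Ednra and Ednrb, the angiotensin II receptors Agtr1a and Agtr2, the histamine receptor Hrh1, the natriuretic peptide clearance receptor Npr3 and the thromboxane receptor Tbxa2r. The study sorted cells from distal lung and sequenced each cell alone, 5480 cells in all, from 10 mice. Each of 5 groups held 1 female and 1 male mouse. Of these groups 4 breathed normal air and were taken at embryonic day 18.5 (E18.5), or on day 1 (P1), day 7 (P7) or day 21 (P21) of postnatal life, and the last was kept in hyperoxia, air enriched in oxygen, and taken at P7. Strain, genotype, oxygen concentration and length of exposure are not given in the sources used here, and no allele or transgene is named for any group. The authors had named 16 cell subtypes, and each cell carries 1 of these names in its label.

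Tone is set by receptors on muscle and pericytes that couple ligands in blood, nerve endings or neighbouring cells to G proteins, calcium and myosin. Endothelins, angiotensin II, acetylcholine, histamine and thromboxane can all contract muscle through receptors of this kind, Ednra and Agtr1a in vessels and Chrm3 and Hrh1 in airways among them. Others act differently: Agtr2 is best known from fetal mesenchyme and often opposes Agtr1a, Ednrb also clears endothelin from the blood, and Npr3 removes natriuretic peptides that relax vessels.

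A level is given here in CPM, the reads of a gene scaled to 1000000 reads in all, in the summed cells of 1 mouse and 1 class, so each value comes from 1 animal. Classes are the authors' subtypes, with early and later names joined for alveolar fibroblasts, adventitial fibroblasts and airway smooth muscle, and a mouse was used for a class with at least 10 of its cells. That gave 64 libraries of a mouse and class. Single cells held 39358 to 5177020 reads (median 774305), and the mice gave 311 to 633 cells each. Reads were counted without molecular identifiers, so limits and intervals cover counting error only. All but 9 cells of the hyperoxic mice came from sequencing runs that held no cell of a mouse in normal air. Hyperoxic cells showed more genes (medians of 4268 in the female and 5545 in the male, against 2988 and 2963 at P7 in normal air), and hyperoxia and run cannot be told apart. Nearly all cells of the 4 males in normal air shared a run. In the females most cells at E18.5 and P1 shared another run (609 and 629 cells). Those at P7 came mainly from a different run (604 cells), and those at P21 from yet another (517 cells). In the females, age and run therefore cannot be told apart from P1 to P7 or from P7 to P21. In summed counts, fewer cells with a transcript and less RNA per cell cannot be told apart.

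Class names were checked against marker lists. All 10 pericyte markers were found in pericytes, where their summed level was 8463 to 11750 CPM, against 1479 to 4004 CPM in vascular smooth muscle. Adventitial fibroblast markers summed to 2025 to 26820 CPM in their own class, a range that overlapped that of airway smooth muscle (559 to 3994 CPM). Markers listed for vascular smooth muscle did not set it apart, since they summed to 1233 to 4813 CPM there and to 1284 to 4747 CPM in airway smooth muscle. Striated muscle markers also summed to 1112 to 2973 CPM in vascular smooth muscle, against 290.1 to 1469 CPM in airway smooth muscle and 0.6655 to 8.55 CPM in pericytes. The only striated muscle library held 104200 CPM of them. The source of this signal was not tested. Airway smooth muscle markers summed to 1795 to 6676 CPM in their own class, which overlapped vascular smooth muscle (1125 to 3071 CPM). Those of alveolar fibroblasts summed to 3332 to 31260 CPM in theirs, which overlapped adventitial fibroblasts (931.6 to 4910 CPM). Those listed for myofibroblasts summed higher in airway smooth muscle (11820 to 19350 CPM) than in myofibroblasts (5972 to 9484 CPM). The authors named subtypes from the expression of these cells, so a p-value between classes is not independent of the naming.

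The receptors divided the mesenchyme unevenly. Ednra was the widest, at 76.3 CPM or more in each of the 64 libraries and with a read in 84.7% of all cells. Ednrb, found in 30.0% of cells, was at its highest in the precursors of myofibroblasts and smooth muscle before birth. Agtr1a was concentrated in pericytes, Agtr2 in adventitial fibroblasts and, among the classes compared, Chrm2 in airway smooth muscle. The only striated muscle library, 16 cells of the P21 female, held more Chrm2, at 275.7 CPM. Npr3 (31.0% of cells) and Tbxa2r (12.6%) were spread thinly over many classes. Chrm3 never passed 4.585 CPM in a library and Hrh1 never passed 0.320 CPM. Library numbers show the same contrast: 64 libraries held at least 10 CPM of Ednra, 49 of Ednrb, 42 of Tbxa2r, 39 of Npr3, 20 of Agtr1a, 15 of Agtr2, 10 of Chrm2, and 0 of Chrm3 or Hrh1.

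**Figure D1:**
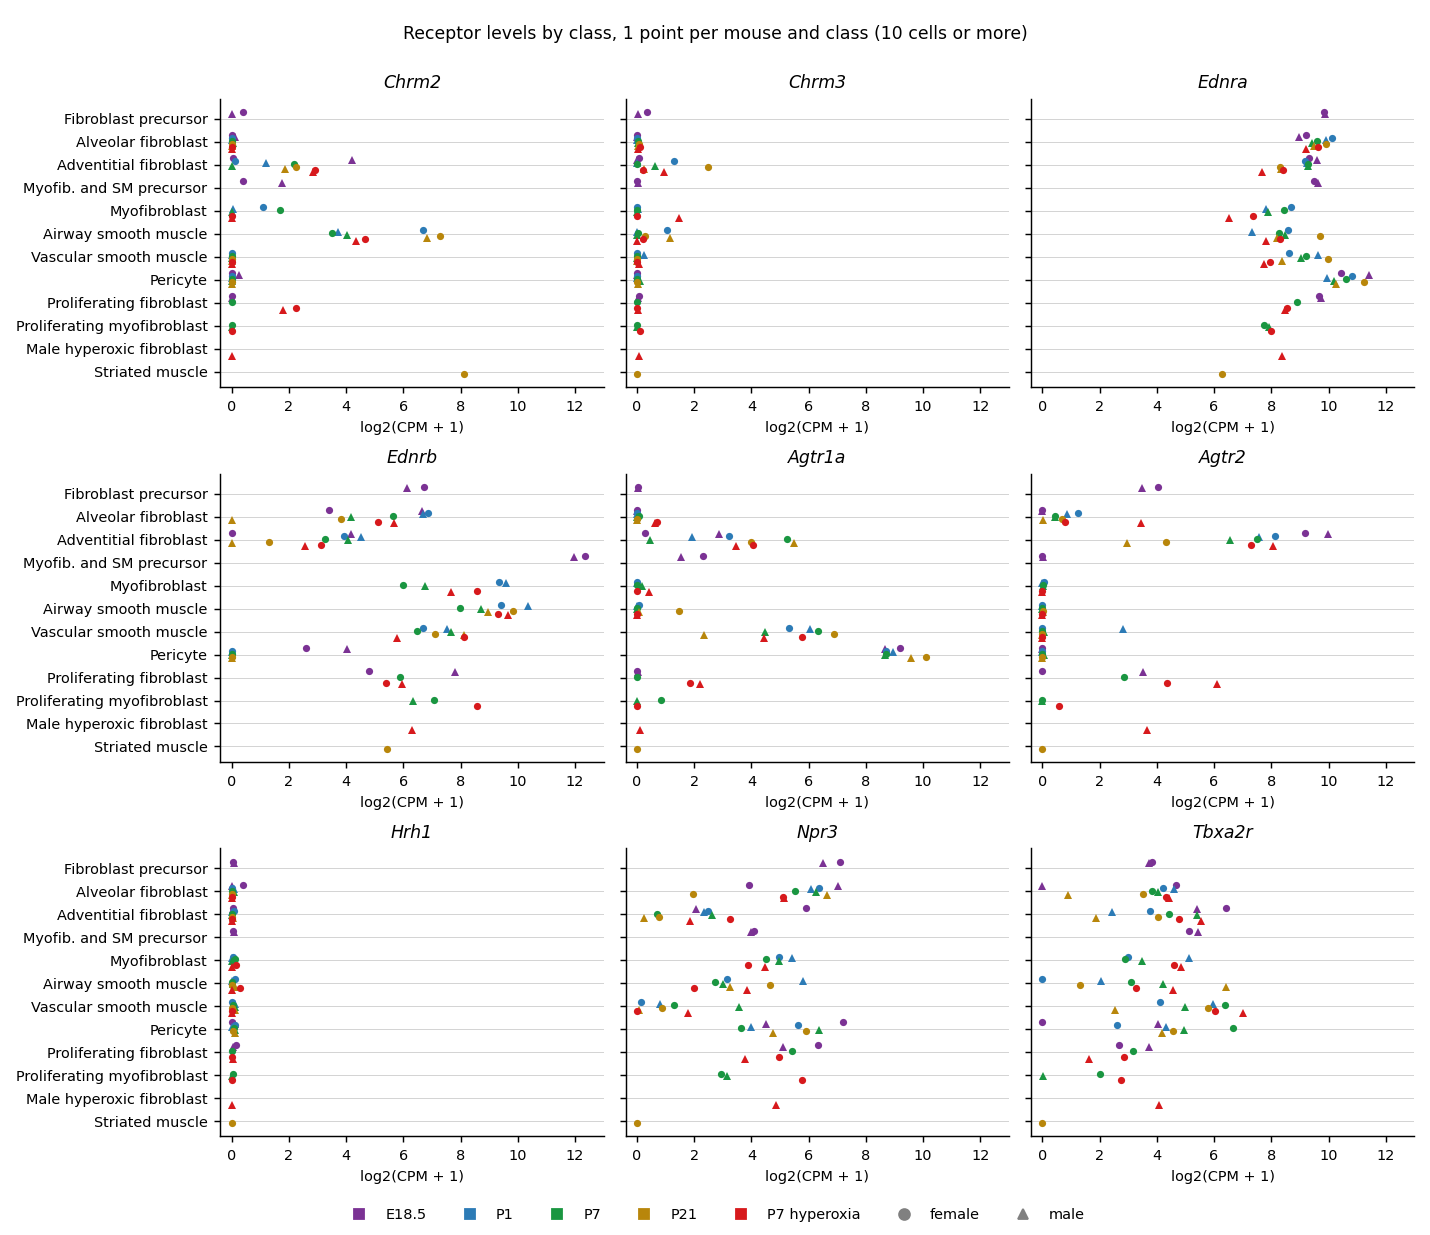
Level of each receptor, as log2(CPM + 1) on the horizontal axis, in the classes named on the vertical axis. Each point is 1 mouse and class with at least 10 cells, coloured by group, with circles for females and triangles for males. Ednra fills every class, Agtr1a stands out in pericytes and Agtr2 in adventitial fibroblasts, and Chrm3 and Hrh1 stay near 0.

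Promoter windows of Ednra, Ednrb, Agtr2 and Chrm2 are shown because the results below turn on these genes. Each window runs from 250 bases before to 50 bases after the RefSeq start of the mouse gene, in the build GRCm38.p6, on the gene's own strand. Ednra lies on the minus strand at chr8:77724403-77724702, Ednrb on the minus strand at chr14:103843652-103843951, Agtr2 on the plus strand at chrX:21484374-21484673 and Chrm2 on the plus strand at chr6:36387834-36388133. Capitals mark matches, on either strand, to the GC box GGGCGG or the E box CANNTG.
Ednra: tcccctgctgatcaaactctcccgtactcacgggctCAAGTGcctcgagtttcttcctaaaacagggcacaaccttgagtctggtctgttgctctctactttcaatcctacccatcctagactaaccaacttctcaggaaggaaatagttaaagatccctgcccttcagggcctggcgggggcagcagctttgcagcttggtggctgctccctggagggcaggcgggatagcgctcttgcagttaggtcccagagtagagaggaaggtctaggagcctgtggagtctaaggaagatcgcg
Ednrb: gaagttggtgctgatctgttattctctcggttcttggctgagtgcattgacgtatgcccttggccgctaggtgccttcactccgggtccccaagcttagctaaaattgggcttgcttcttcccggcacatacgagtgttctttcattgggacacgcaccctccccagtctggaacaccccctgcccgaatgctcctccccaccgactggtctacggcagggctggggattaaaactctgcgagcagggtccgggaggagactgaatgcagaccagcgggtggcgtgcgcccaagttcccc
Agtr2: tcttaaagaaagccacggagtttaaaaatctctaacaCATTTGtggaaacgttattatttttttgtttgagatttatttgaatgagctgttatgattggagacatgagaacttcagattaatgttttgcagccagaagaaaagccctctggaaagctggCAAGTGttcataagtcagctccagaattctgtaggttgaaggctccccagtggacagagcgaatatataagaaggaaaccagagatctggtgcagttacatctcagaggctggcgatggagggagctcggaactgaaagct
Chrm2: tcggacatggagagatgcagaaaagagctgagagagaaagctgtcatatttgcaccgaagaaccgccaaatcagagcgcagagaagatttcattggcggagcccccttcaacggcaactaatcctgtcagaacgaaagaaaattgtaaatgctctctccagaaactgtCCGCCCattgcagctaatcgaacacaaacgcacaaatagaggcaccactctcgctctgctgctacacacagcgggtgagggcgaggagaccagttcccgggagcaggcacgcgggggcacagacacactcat
The Ednra window holds 1 E box, which begins 214 bases before the start, and the Agtr2 window holds 2, at 213 and 91 bases before it. In the Chrm2 window 1 GC box begins 82 bases before the start, and the Ednrb window matches neither motif. None of these 4 windows holds TATAAA or a CArG box, the motif bound by serum response factor in smooth muscle genes. Among 32851 RefSeq windows of the same length, 72.3% hold an E box, 35.7% a GC box, 13.6% TATAAA and 1.63% a CArG box. G and C made up 54.7% of the Ednra window, 58.7% of that of Ednrb, 41.3% of that of Agtr2 and 52.7% of that of Chrm2, against a median of 52.7% over all windows.

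Differences were tested with edgeR's quasi-likelihood test on the summed counts of each mouse and class, two-sided, with a Benjamini-Hochberg adjustment over all genes tested and a threshold of 0.05. DESeq2 was run on the same sums as an alternative. With 2 mice per group these p-values rest on few animals. Groups of this size can also separate by chance, and the share of all genes that did so was not counted in any comparison. Where libraries are said not to overlap, or to lie above or below others, this describes them only. Within a class the spread was estimated over all its groups together, after a term for sex. Between classes the mouse was a block, so the spread there is that of class differences between mice. Between successive ages in normal air, edgeR called 0 receptors in 84 tests over 14 comparisons, of which 12 tests had an unadjusted p under 0.05, while DESeq2 called 8. Over all genes and these 14 comparisons, 7.64% of tests had an unadjusted p under 0.05 and DESeq2 called 6.19%. Of all genes tested, edgeR called in alveolar fibroblasts 5.12% from E18.5 to P1, 0% from P1 to P7 and 0.0511% from P7 to P21 (DESeq2 23.2%, 1.37% and 6.83%). In adventitial fibroblasts the same steps gave 0.19%, 0% and 0.157% (DESeq2 5.09%, 2.15% and 5.57%). Airway smooth muscle had 0% from P1 to P7 and 1.29% from P7 to P21 (DESeq2 2.92% and 8.64%), myofibroblasts 0% from P1 to P7 (DESeq2 5.15%), and vascular smooth muscle 0% and 0.0886% (DESeq2 3.58% and 6.78%). For pericytes the shares were 0.042% from E18.5 to P1, 0% from P1 to P7 and 0.0504% from P7 to P21 (DESeq2 5.61%, 4.02% and 3.74%).

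Hyperoxia was compared with normal air at P7 in 5 classes. There edgeR called 0 receptors in 30 tests, of which 5 had an unadjusted p under 0.05, against 4.58% of the tests of all genes, and DESeq2 called 3, against 1.92%. No gene passed edgeR's threshold in any of these 5 classes, a share of 0% in each, while DESeq2 called 1.54% of genes in alveolar fibroblasts, 2.53% in adventitial fibroblasts, 0.963% in airway smooth muscle, 2.81% in myofibroblasts and 1.73% in vascular smooth muscle. Between classes of the same mice edgeR called 2 receptors in 59 tests over 8 comparisons, both of them between pericytes and vascular smooth muscle at P7, where 4.14% of all genes were called (DESeq2 called 3 receptors there and 20.4% of genes). At an unadjusted p under 0.05 there were 24 of these 59 tests, against 11.1% of the tests of all genes in the 8 comparisons. DESeq2 called 19, against 9.92% of all tests.

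Ednra, the endothelin receptor that drives contraction of vessel muscle, had its highest levels in pericytes. Its level there was 1383 CPM in the female and 2760 CPM in the male at E18.5, 1822 and 989.8 CPM at P1, 1547 and 1172 CPM at P7, and 2393 and 1238 CPM at P21. Pericytes exceeded vascular smooth muscle in 6 of 6 mice, by 1.235 to 4.64-fold, and alveolar fibroblasts in 8 of 8 mice, by 1.018 to 5.477-fold. The lead was slight in the P1 male, where alveolar fibroblasts held 972.5 CPM. A single cell gave 72% of the reads in the E18.5 male, and its pericytes held 1189 CPM without it.

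At P7 Ednra was 1360 ± 265 CPM (SD, n = 2) in pericytes and 558.5 ± 39.1 CPM in vascular smooth muscle. The log2 difference was 1.24 (SE 0.25, edgeR adjusted p = 0.022), and both pericyte libraries lay above both muscle libraries. The call did not survive every setting: with classes of at least 5 cells the adjusted p was 0.196, in 1 fit over all groups 0.065. In that fit over all groups it was 0.685 without the P7 female, 0.4 without the P7 male, 0.0949 without the E18.5 female and 0.0727 without the E18.5 male. At P21 pericytes again held 2393 and 1238 CPM against 1021 and 327 CPM, a log2 difference of 1.47 (SE 0.44) that missed the threshold (adjusted p = 0.187). Of all genes, 1.57% were called there by edgeR and 15.9% by DESeq2.

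Other classes held less Ednra than pericytes at P7. In order of their means at P7, alveolar fibroblasts (781 CPM in the female and 686 CPM in the male), adventitial fibroblasts (616 and 619.7 CPM) and vascular smooth muscle (586 and 531 CPM) followed the pericytes without overlap. Proliferating fibroblasts of the female came next at 481 CPM. Airway smooth muscle (304 and 354 CPM), myofibroblasts (347 and 236 CPM) and proliferating myofibroblasts (214 and 240 CPM) overlapped their neighbours in the order. Airway smooth muscle also varied between ages and mice, with 380 and 160 CPM at P1 and 836 and 292 CPM at P21. Alveolar fibroblasts held 586 and 504 CPM at E18.5 and 1121 and 972.5 CPM at P1, a log2 difference of 0.89 (SE 0.30, adjusted p = 0.137). The median log2 difference over all genes in that comparison was 1.355, so the one of Ednra lay below it and is not read as a rise of its own. Only 14 and 24 alveolar fibroblasts carried that name at E18.5. They showed medians of 1042 and 1232 genes per cell, against 2878.5 and 3001 at P1. Adventitial fibroblasts held 314 and 324.5 CPM at P21, below both libraries at P7, with a log2 difference of -0.78 (SE 0.31, adjusted p = 0.452).

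Ednrb showed the widest range of any receptor here. In the E18.5 precursors of myofibroblasts and smooth muscle it reached 5165 CPM in the female and 3978 CPM in the male, with a read in 223 of 224 cells. Fibroblast precursors of the same mice held 105 and 68.7 CPM, so the means differed 52.7-fold. Both mice showed this contrast, with log2 differences of 5.61 and 5.84, but edgeR did not call it (log2 difference 5.69, SE 1.80, adjusted p = 0.57), while DESeq2 did (adjusted p = 0.0321). That comparison had 0 receptors called by edgeR (3 at an unadjusted p under 0.05) and 0.31% of all genes, against 3 receptors and 3.27% of genes with DESeq2.

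After birth Ednrb was read in airway and vascular smooth muscle, myofibroblasts and alveolar fibroblasts, among other classes. Alveolar fibroblasts held 115.5 CPM in the female and 103 CPM in the male at P1, with a read in 127 of 362 and 135 of 393 cells. Their level was 48.4 and 16.8 CPM at P7 and 13.2 and 0.0165 CPM at P21. Airway smooth muscle held 683 CPM in the female and 1307 CPM in the male at P1, 254 and 415 CPM at P7, and 914 and 502.5 CPM at P21. The P7 libraries were below those of both other ages. The log2 difference was -1.61 (SE 0.44, adjusted p = 0.835) from P1 to P7 and 1.53 (SE 0.45, adjusted p = 0.224) from P7 to P21, calls that only DESeq2 made (adjusted p = 0.0286 and 0.0177). Males alone, nearly all from 1 run, differed by -1.65 and 0.27 at these steps, while the females changed run at both. Airway smooth muscle exceeded vascular smooth muscle in 8 of 8 mice, by 1.814 to 15.09-fold. At P7 these classes held 334 ± 114 and 145.5 ± 82.1 CPM (SD, n = 2), and their log2 difference of 1.02 (SE 0.66) was not called (adjusted p = 0.521).

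Myofibroblasts, the contractile cells of the forming alveolar septa, had 649.5 and 762.5 CPM of Ednrb at P1 but 61.99 and 108 CPM at P7. The means were 8.29-fold apart and the libraries did not overlap, a separation that was not counted over all genes. Females and males alike were lower at P7, by log2 differences of -3.37 and -2.80. The fitted difference was -3.12 (SE 0.47), with an edgeR adjusted p of 0.321 and a DESeq2 adjusted p of 9.09e-10. A read of Ednrb was found in 74.4% and 81.2% of these cells at P1 and in 21.9% and 21.7% at P7. In cells thinned to 100000 reads each, the shares were 73.5% and 81.5% at P1 and 17.8% and 19.7% at P7. At P7 airway smooth muscle was above myofibroblasts (log2 difference 2.01, SE 0.68, adjusted p = 0.639). There edgeR called 0 receptors (1 at an unadjusted p under 0.05) and 0.0671% of genes, and DESeq2 called 0 receptors and 2.62% of genes.

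Pericytes lacked Ednrb from P1 on, to the depth reached. At E18.5 they held 5.066 CPM in the female and 15.3 CPM in the male, from 5 of 28 cells. No read was found in 43 pericytes at P1 and 57 at P7, and 1 read was found in 145 pericytes at P21. A count of 0 allows up to 0.149 and 0.114 CPM in the female and male at P7, and a read in up to 11.5% and 9.68% of their cells. Vascular smooth muscle of these P7 mice held 87.5 and 203.5 CPM, so pericytes were at least 585-fold lower, with 3 reads per library as the floor (edgeR adjusted p = 0.000289). The muscle level rested on few cells. In the female 5 of 27 cells and in the male 4 of 31 had a read, 1 male cell gave 98% of the reads, and without the top cell the levels were 44.1 and 4.681 CPM. The call was lost when the female (adjusted p = 0.535) or the male P7 mouse (0.451) was left out, and it held in the other 13 of 15 alternatives. At P21 vascular smooth muscle held 136 and 277 CPM (adjusted p = 0.0702, DESeq2 1.45e-09).

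**Figure D2:**
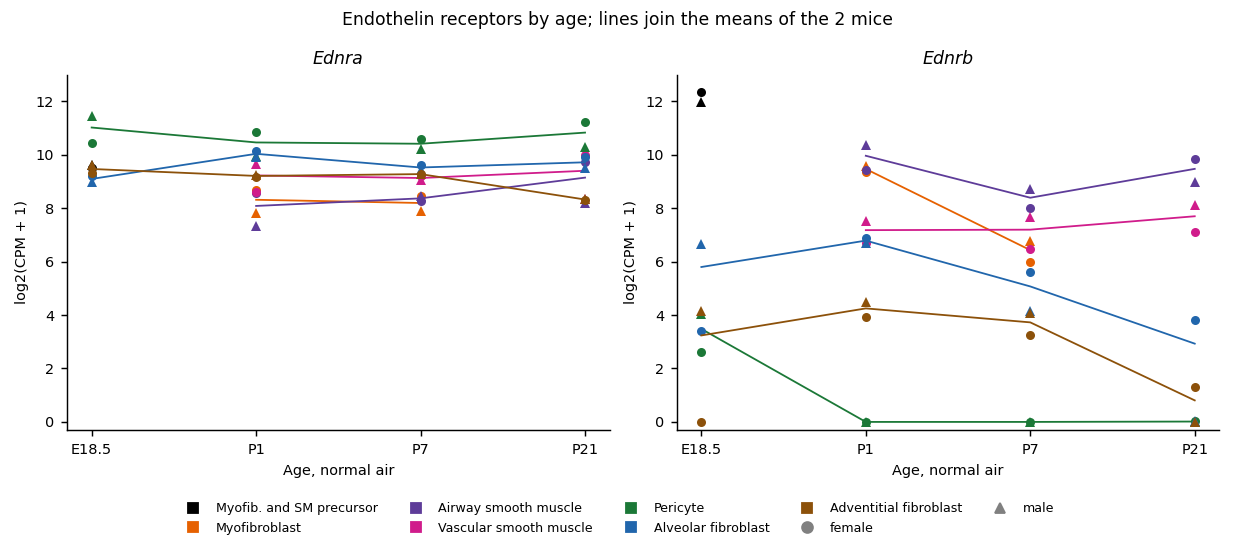
Ednra (left) and Ednrb (right), as log2(CPM + 1), by age in normal air, with 1 point per mouse and a line through the mean CPM of each class. Ednra stays above 7 on this scale in every class shown, while Ednrb runs from over 11 in the E18.5 precursors to 0 in pericytes.

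In hyperoxia the levels of Ednra and Ednrb differed from normal air without overlap in some classes and overlapped in others, and edgeR called none of these differences. With 2 mice on each side, groups can separate by chance. The share of all genes that did so was not counted, so no result is read from the separation. Ednra in adventitial fibroblasts was 341 CPM in the female and 205.5 CPM in the male, against 616 and 619.7 CPM in normal air (log2 difference -1.36, SE 0.31, adjusted p = 0.425, DESeq2 0.0149). Myofibroblasts held 163 and 90.5 CPM against 347 and 236 CPM (log2 difference -1.27, SE 0.29, adjusted p = 0.469, DESeq2 0.0165). In vascular smooth muscle the levels were 249.2 and 215 CPM against 586 and 531 CPM (log2 difference -1.51, SE 0.59, adjusted p = 1.0, DESeq2 0.443). Both hyperoxic mice lay below both normal mice in these 3 classes. Alveolar fibroblasts (792 and 590.3 CPM) and airway smooth muscle (312 and 225 CPM) overlapped their normal groups, with log2 differences of -0.23 (SE 0.30) and -0.39 (SE 0.44). Without the P7 male in normal air the difference in airway smooth muscle was 0.33.

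The share of myofibroblasts with an Ednra read moved the other way from its level, at 87.9% and 91.1% in hyperoxia and 63.2% and 56.5% in normal air. With cells thinned to 100000 reads it was still 82.8% and 80.0% against 59.2% and 52.2%. No order is read from these shares. More genes of any kind were detected in the hyperoxic cells, and the part of this in the result was not tested.

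Ednrb in myofibroblasts was 378 CPM in the female and 203 CPM in the male in hyperoxia, against 61.99 and 108 CPM in normal air (log2 difference 1.77, SE 0.46, adjusted p = 0.565, DESeq2 0.00625). Airway smooth muscle held 634 and 815 CPM against 254 and 415 CPM (log2 difference 1.12, SE 0.43, adjusted p = 1.0, DESeq2 0.391). In adventitial fibroblasts both hyperoxic mice were lower, at 7.807 and 4.948 CPM against 8.492 and 16.0 CPM. Vascular smooth muscle (276.5 and 54.0 CPM) and alveolar fibroblasts (33.9 and 49.8 CPM) overlapped their normal groups. Whether the effect of hyperoxia differed between classes was tested for 8 receptors. By edgeR 0 were called with 0.187% of all genes (1 at an unadjusted p under 0.05, against 7.65% of all genes), and by DESeq2 1 of 8 with 5.45% of genes. That receptor was Ednra, with an adjusted p of 0.203 by edgeR and 0.0103 by DESeq2.

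Markers of other cells moved with some of these values. In adventitial fibroblasts, where all 6 mesothelial markers were found, their sum was 722 and 826 CPM in hyperoxia against 288 and 0.0810 CPM in normal air, and the 8 smooth muscle markers summed to 2385 and 2264 CPM against 899.8 and 1328 CPM. In myofibroblasts the 7 vascular smooth muscle markers summed to 454 and 229 CPM against 878 and 1255 CPM, and the 8 alveolar fibroblast markers to 53.5 and 65.4 CPM against 13.0 and 16.0 CPM. In vascular smooth muscle the 8 adventitial markers summed to 299 and 395 CPM against 698 and 949 CPM. No listed marker of these was at 0 in its class over all libraries. Their part in the levels of Ednra and Ednrb was not tested.

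**Figure D3:**
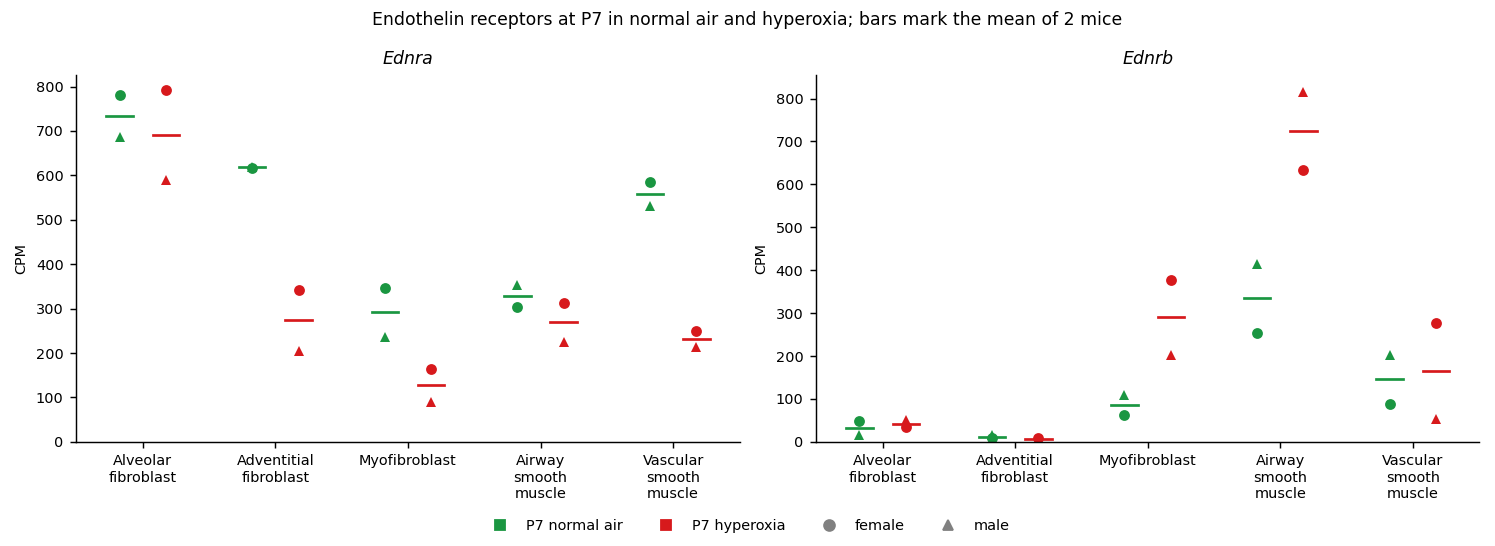
CPM of Ednra (left) and Ednrb (right) at P7 in 5 classes, in normal air (green) and hyperoxia (red), with 1 point per mouse and a bar at the mean of 2 mice. Hyperoxic Ednra points lie below the normal ones in adventitial fibroblasts, myofibroblasts and vascular smooth muscle, and hyperoxic Ednrb points lie above them in myofibroblasts and airway smooth muscle.

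Agtr1a, the angiotensin receptor through which vessels contract, was a pericyte transcript. Pericytes held 583 CPM in the female and 403 CPM in the male at E18.5, 418 and 490.0 CPM at P1, 416 and 406 CPM at P7, and 1086 and 760.4 CPM at P21. Both P21 libraries were above all earlier ones, but the log2 difference from P7 of 1.19 (SE 0.46) was not called (edgeR adjusted p = 0.935, DESeq2 0.303). Between 53.8% and 92.9% of pericytes per mouse had a read. The same share was at most 0.943% in alveolar fibroblasts of any mouse, which served as background.

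Vascular smooth muscle came next with 4.111 to 118 CPM (median 45.8 CPM), from 1 to 5 cells in each of 8 mice. In all 6 mice with both classes pericytes were higher, by 5.258 to 185-fold. The log2 difference was 3.63 (SE 1.88, adjusted p = 0.326) at P7 and 4.97 (SE 1.65, adjusted p = 0.225, DESeq2 0.0166) at P21. Adventitial fibroblasts held 0.203 to 44.2 CPM. Airway smooth muscle had no read at P7, which makes its level at least 437-fold below the 79.2 and 21.0 CPM of vascular smooth muscle (adjusted p = 0.0648, DESeq2 9.41e-08). In that comparison of the muscle classes edgeR called 0 receptors (3 at an unadjusted p under 0.05) and 1.69% of genes, and DESeq2 2 receptors and 13.4% of genes. At P21 it called 0 receptors (3 at an unadjusted p under 0.05) and 0.736% of genes, and DESeq2 called 3 receptors and 12.7% of genes. Mice carry a near-identical copy, Agtr1b, so reads of the pair may have been split or lost in counting. Hyperoxic pericytes could not be assessed, since those mice gave 5 and 3 of them.

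Agtr2, the angiotensin receptor known from fetal mesenchyme, was found in adventitial fibroblasts, the cells around larger vessels and airways, and its level there was lower at each later age. It was 576 CPM in the female and 1001 CPM in the male at E18.5, 281 and 191 CPM at P1, 178.5 and 93.8 CPM at P7, and 19.0 and 6.703 CPM at P21. The groups of successive ages did not overlap, although the P1 male lay close to the P7 female. How many of all genes separate in this way was not counted, so no result is read from the separation. The males alone, nearly all from 1 run, followed the same order, with log2 differences of -2.39, -1.01 and -3.62 at the successive steps. From P7 to P21 the means were 10.6-fold apart, with a log2 difference of -3.28 (SE 0.55) that lay just outside the threshold (edgeR adjusted p = 0.059, DESeq2 5.55e-07). The earlier differences were -1.81 (SE 0.53, adjusted p = 0.319, DESeq2 0.0193) and -0.69 (SE 0.51, adjusted p = 0.883).

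A read of Agtr2 was found in 73.1% and 86.2% of adventitial fibroblasts at E18.5, in 48.0% and 58.9% at P7, and in 11.8% and 3.49% at P21. In hyperoxia 69.1% and 70.7% of them had a read, and the level was 156 and 264 CPM, which overlapped normal air (log2 difference 0.52, SE 0.52, adjusted p = 0.814, and -0.20 without the hyperoxic male). Alveolar fibroblasts of the same mice were lower in 10 of 10 mice and never passed 9.934 CPM. At P7 they held 0.357 and 0.367 CPM, 376-fold below adventitial fibroblasts by their means (adjusted p = 0.0638, DESeq2 1.49e-12). In this comparison of fibroblasts edgeR called 0 receptors (3 at an unadjusted p under 0.05) and 0.913% of genes at P7, and 0 receptors (4) and 0.564% of genes at P21. DESeq2 called 3 receptors and 6.3% of genes at P7, and 2 receptors and 4.6% of genes at P21. Fibroblast precursors held 15.5 and 10.1 CPM at E18.5, and the contractile precursors of the same mice held 0 and 0.0237 CPM.

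Chrm2, a muscarinic receptor that couples to inhibitory G proteins, marked a minority of airway smooth muscle cells. It was 101 CPM in the female and 12.0 CPM in the male at P1, 10.5 and 15.4 CPM at P7, and 155 and 113 CPM at P21. Both P21 libraries were above the other ages, by a log2 difference from P7 of 3.60 (SE 0.89, edgeR adjusted p = 0.125, DESeq2 0.000382). Males alone gave a log2 difference of 2.80. The share of cells with a read was 5.33% and 6.25% at P7 and 35.5% and 19.3% at P21, or 4.00% and 4.76% against 25.8% and 17.9% in thinned cells. Few cells carried most reads: in the P21 male 1 of 57 cells gave 76%, and the level without it was 28.0 CPM. In hyperoxia Chrm2 was 24.4 and 19.4 CPM, above both P7 mice in normal air (log2 difference 0.65, SE 0.80, adjusted p = 1.0), from 5 and 2 cells. That difference was -0.045 without the P7 female.

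Vascular smooth muscle had no Chrm2 read in any of its 8 libraries, which allows 0.111 to 0.285 CPM. Airway smooth muscle was at least 92.4-fold higher at P7 (adjusted p = 0.328) and at least 776-fold higher at P21 (adjusted p = 0.0655, DESeq2 0.0315), with 3 reads per library as the floor. Chrm3, the muscarinic receptor best known for contracting airway muscle, was hardly detected there. It had 1382 reads in 87 cells of the whole series, 37.8% of them from 1 cell, and in airway smooth muscle its highest library was 1.242 CPM. Its highest library of all was the adventitial fibroblasts of the P21 female at 4.585 CPM, of which 1 cell gave 71.3%.

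**Figure D4:**
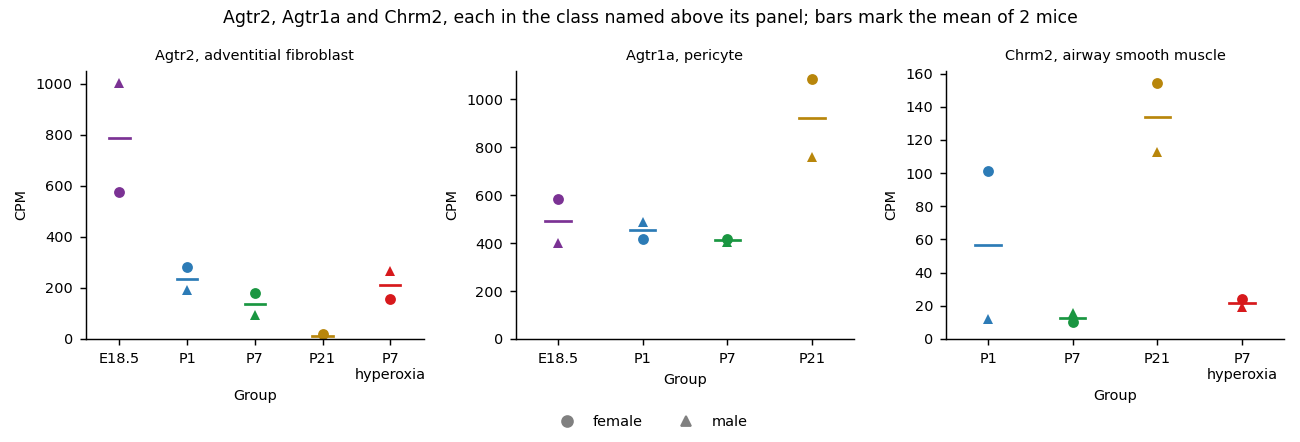
CPM of Agtr2 in adventitial fibroblasts, Agtr1a in pericytes and Chrm2 in airway smooth muscle by group, with 1 point per mouse and a bar at the mean of 2 mice. Agtr2 is highest at E18.5 and lowest at P21, while Agtr1a and Chrm2 are highest at P21.

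Npr3, which binds and removes natriuretic peptides, was highest by its mean in fibroblast precursors at E18.5 and in alveolar fibroblasts at P1, P7 and in hyperoxia, with overlap with pericytes at E18.5 and P7. Fibroblast precursors held 135.5 CPM in the female and 90.6 CPM in the male, with a read in 63.1% and 63.3% of cells, while the contractile precursors held 16.1 and 15.0 CPM (log2 difference -2.75, SE 1.51, adjusted p = 1.0). Alveolar fibroblasts had 81.1 and 65.9 CPM at P1 and 44.5 and 75.7 CPM at P7. At P21 the female held 2.838 CPM and the male 97.7 CPM, of which 1 cell gave 98%, so that 2.162 CPM remained without it. Reads were found in 31.2% and 34.7% of alveolar fibroblasts at P7 but in 8.79% and 9.46% at P21.

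Adventitial fibroblasts held less Npr3 at P7, 0.610 and 5.133 CPM, than alveolar fibroblasts (log2 difference 4.75, SE 1.27, adjusted p = 0.161, DESeq2 2.76e-05). Pericytes held 11.5 to 144.5 CPM over 8 libraries, and vascular smooth muscle 0 to 10.9 CPM. At P21 the pericyte values of 59.5 and 25.7 CPM stood against 0.821 and 0.0484 CPM in vascular smooth muscle. edgeR called 0 receptors in that comparison (4 at an unadjusted p under 0.05) and DESeq2 called 3, among them Npr3 (adjusted p = 0.216 and 0.000501). Hyperoxic alveolar fibroblasts held 33.2 and 34.6 CPM, below both normal mice at P7 (log2 difference -0.73, SE 1.34, adjusted p = 1.0). It was 0.075 without the hyperoxic male and 0.062 without the P7 female. At P7 myofibroblasts exceeded airway smooth muscle, with 21.9 and 30.4 CPM against 5.678 and 7.121 CPM (log2 difference for airway smooth muscle -1.98, SE 1.11, adjusted p = 0.937).

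Tbxa2r, the receptor for the vasoconstrictor thromboxane A2, was highest in vascular smooth muscle in its median, 57.7 CPM over 8 libraries. Values there were scattered, from 4.739 CPM in the P21 male to 128 CPM in the hyperoxic male, and 2 to 13 cells per mouse had a read. At P7 vascular smooth muscle held 82.3 and 30.6 CPM and pericytes 99.9 and 30.1 CPM, which overlapped (log2 difference 0.17, SE 1.44, adjusted p = 1.0, and -0.23 without the P7 female). Airway smooth muscle of these mice held 7.652 and 17.4 CPM (log2 difference -2.11, SE 1.53, adjusted p = 0.568). In adventitial fibroblasts Tbxa2r was 83.4 and 41.2 CPM at E18.5 and 12.4 and 4.335 CPM at P1 (log2 difference -2.97, SE 0.91, adjusted p = 0.358, DESeq2 0.0112). It then stood at 20.6 and 41.1 CPM at P7 (log2 difference 2.26, SE 0.92, adjusted p = 0.827) and at 15.3 and 2.641 CPM at P21. Myofibroblasts held 23.3 and 27.6 CPM in hyperoxia against 6.352 and 10.3 CPM in normal air (log2 difference 1.66, SE 0.90, adjusted p = 0.841). These values did not overlap, from which no result is read.

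Hrh1, the receptor by which histamine contracts airways, was at the edge of detection. The series held 188 reads of it in 134 cells, and its highest library, at 0.320 CPM, rested on 1 read. No class or group can be set apart for Hrh1 at this depth.

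**Figure D5:**
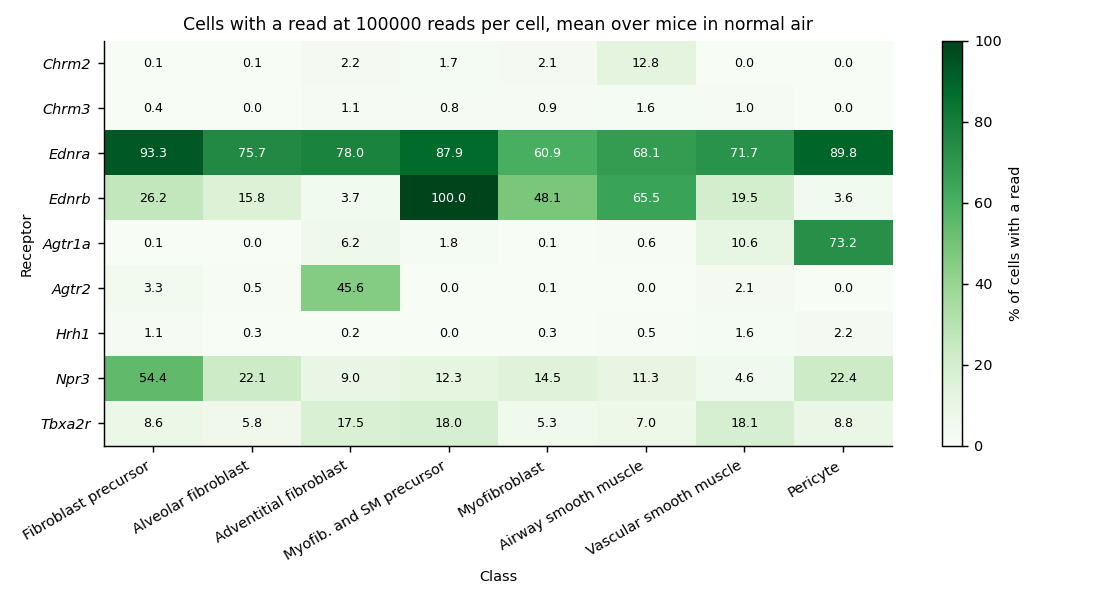
Percentage of cells with at least 1 read of each receptor (rows) in 8 classes (columns), after thinning each cell to 100000 reads, as the mean over the mice in normal air. Ednra is found in 60.9% to 93.3% of cells in each class, Agtr1a in 73.2% of pericytes, Agtr2 in 45.6% of adventitial fibroblasts, and Chrm3 and Hrh1 in 2.20% or less of any class.

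Levels of different receptors can be compared per length, as CPM per kilobase of exon in the GENCODE M21 annotation. In pericytes the median over 8 libraries was 267.5 for Ednra and 163 for Agtr1a, with Tbxa2r next at 9.37. Airway smooth muscle led with Ednrb at 154 and Ednra at 56.3, and Chrm2 followed Tbxa2r with 3.62 against 4.23. In vascular smooth muscle the order was Ednra at 84.3, Ednrb at 37.5, Tbxa2r at 30.1 and Agtr1a at 16.4. Adventitial fibroblasts held Ednra at 108 and Agtr2 at 55.5. In the E18.5 contractile precursors Ednrb, at 1072, exceeded Ednra, at 138. Of the myofibroblast libraries the median was 68.1 for Ednrb and 42.0 for Ednra.

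Several receptors were read in the same cells. Ednra and Agtr1a were both found in 200 of 273 pericytes, with Ednra alone in 50 and Agtr1a alone in 10. Both endothelin receptors were found in 203 of 224 contractile precursors at E18.5 and in 213 of 399 airway smooth muscle cells. In pericytes they met in 6 of 273 cells. Among airway smooth muscle cells with a Chrm2 read, 49 of 56 also had one of Ednrb. Ednra and Agtr2 shared 352 of 839 adventitial fibroblasts, whereas Agtr1a and Agtr2 shared 49, with Agtr1a alone in 42 and Agtr2 alone in 353. These counts pool mice and depend on depth, and no test was made on them.

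The genes around the receptors were taken from 3 lists. Of 26 ligands and enzymes that make or remove them 22 were in the table, of 53 other tone receptors 48, and of 49 genes acting below the receptors 47. In hyperoxia edgeR called 0 of the genes on each list in all 5 classes and in the test between classes. It also called 0% of all genes in each of these classes and 0.187% in that test, so nothing is read about the lists. Over the 5 classes the list medians ran from 0.031 to 1.658 for ligands, -0.036 to 0.636 for other receptors and -0.188 to 0.196 for signalling. Those of all genes ran from -0.056 to 0.12. With age few were called. In airway smooth muscle from P7 to P21, 1 of 12 ligand-list genes tested fell, 1 of 30 receptors rose, and 1 of 46 signalling genes rose and 1 fell, with list medians of 0.23, -0.48 and 0.51 against -0.09 over all genes, of which 1.29% were called. Agt, the precursor of angiotensin II, fell from 2240 and 1887 CPM to 235 and 376 CPM (log2 difference -2.42, SE 0.31, adjusted p = 0.00856). The sphingosine 1-phosphate receptor S1pr3 rose from 37.9 and 31.5 CPM to 544 and 515 CPM (4.30, SE 0.82, adjusted p = 0.0446). Rgs2, which dampens Gq signals, rose (2.53, SE 0.31, adjusted p = 0.00692), and Rgs5 fell (-2.67, SE 0.44, adjusted p = 0.0215). In alveolar fibroblasts from E18.5 to P1, 2 of 20 ligand-list genes rose (Ptgis and Enpep), and 2 of 47 signalling genes rose (Grk2 and Adcy3) and 1 fell (Gucy1a1), where the median of all genes was itself 1.35 and 5.12% were called. In adventitial fibroblasts from P7 to P21, 1 of 47 signalling genes fell, Rgs5, to 0.0814 and 0.0290 CPM from 14.2 and 50.9 CPM (0.157% of all genes were called). In pericytes from E18.5 to P1, 1 of 10 ligand-list genes rose: the endothelin gene Edn3, with 1 read over both E18.5 libraries and 39.3 and 23.0 CPM at P1 (adjusted p = 0.0175, with 0.042% of all genes called).

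Between pericytes and vascular smooth muscle at P7 the signalling list split, with 3 of 47 genes higher in pericytes and 3 lower, and a median of 0.43 against -0.04 over all genes, of which 4.14% were called. The guanylate cyclase subunit Gucy1b1 (721 and 1048 CPM against 101 and 286 CPM, adjusted p = 0.0467) and the phosphodiesterase Pde5a (2152 and 1837 CPM against 134 and 146 CPM, adjusted p = 0.0012), both parts of the nitric oxide and cGMP route, were higher in pericytes. Adenylate cyclase Adcy5 was at 0.0498 and 0 CPM in pericytes and at 47.0 and 166 CPM in the muscle (adjusted p = 0.00401), and Plcb4 at 0.0498 and 0.114 CPM against 24.9 and 85.6 CPM (adjusted p = 0.00259). Of the other receptors 1 of 43 was higher, Ptger2 (4.481 and 1.753 CPM against 0 and 0.0371 CPM), and 1 was lower, Ramp1, a partner of the calcitonin receptor-like receptor, with no read in pericytes and 235 and 381 CPM in the muscle. From the ligand list Ptgis, prostacyclin synthase, was lower in pericytes, as 1 of 20 tested. Airway smooth muscle at P7 had 2 of 20 ligand-list genes above vascular smooth muscle, Agt (2240 and 1887 CPM against 0.0755 and 0 CPM) and Ptgs1. It also had 2 of 43 other receptors higher, Lpar1 and Ptger2, and 1 of 47 signalling genes higher and 4 lower, where 1.69% of all genes were called. At P21 pericytes had 1 of 16 ligand-list genes lower (Ptgis), 1 of 43 other receptors higher (F2r, a thrombin receptor), and 2 of 47 signalling genes higher and 5 lower than vascular smooth muscle (1.57% of all genes). Airway smooth muscle then had 1 of 16 ligand-list genes lower, Edn3 (0 and 0.0207 CPM against 117 and 78.9 CPM), and 5 of 47 signalling genes lower (0.736% of all genes). Alveolar fibroblasts stood above adventitial fibroblasts in 3 of 47 signalling genes at P7, among them Mylk, the myosin light chain kinase (821 and 917 CPM against 212 and 209 CPM), and in 5 of 47 at P21, with 1 lower each time, where 0.913% and 0.564% of all genes were called.

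For each receptor with at least 10 CPM in 2 or more libraries, the 3 genes with the most similar pattern were found by Pearson's r of log2(CPM + 1) over the 64 libraries, among 12896 genes. These libraries share mice and runs, so r is a description. Agtr2 was closest to Osr2 (r = 0.908), Rtl3 (0.887) and AW551984 (0.850). Agtr1a was closest to Gja4 (r = 0.883), Adamtsl3 (0.861) and Pdzd2 (0.860). For Chrm2 they were 9330158H04Rik (0.829), Lrrc3b (0.757) and Trdn (0.742), and for Ednra they were Slc12a2 (0.790), Prex2 (0.747) and Sparcl1 (0.742). Ednrb followed Myocd (0.752), Net1 (0.720) and Lgr6 (0.714), of which Myocd and Lgr6 are also on the marker lists. Npr3 had Maml3 (0.709), Ptk7 (0.693) and Kitl (0.685), while Tbxa2r had none above 0.582 (Ssh1, Sfxn3 and Lrrc42). Among the receptors themselves Ednra and Agtr1a had r = 0.505, and Ednrb and Agtr1a -0.547.

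Smaller classes added few contrasts. Proliferating myofibroblasts at P7 held 135 and 80.2 CPM of Ednrb, near the 61.99 and 108 CPM of myofibroblasts that were not named proliferating, and 379 CPM in the hyperoxic female. The 55 cells of the subtype that the authors named male hyperoxic fibroblast, all from the hyperoxic male, held 330.2 CPM of Ednra and 77.4 CPM of Ednrb, and Ednra was read in 55 of 55. Proliferating fibroblasts in hyperoxia held 19.4 and 67.6 CPM of Agtr2, where adventitial markers summed to 5390 and 3546 CPM. Such values come from 1 or 2 mice, and no test was made on them.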

How the data were processed

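Single mesenchymal cells of mouse lung were sequenced on plates, and the authors deposited whole read counts per gene and cell, without molecular identifiers. The submitters' processing notes name STAR 2.5.2b, HTSeq 0.10 and the human build GRCh38. The mouse build behind the counts is not given in the sources used here, so no coordinate was taken from them. Cells of 10 mice were grouped by age, air and subtype as labelled, and 3 classes joined an early and a later name.

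For every mouse and class with at least 10 cells the reads were added up, and levels are CPM of those sums. Total reads per mouse were 294154721 to 671766116. Tests used edgeR 4.0.16 in R 4.3.3 (quasi-likelihood, TMM scaling, low-count filter). Age and hyperoxia were fitted within a class with a term for sex, and classes were compared within an age with the mouse as a block, since they come from the same animals. DESeq2 1.42.0 was the alternative tool. Other alternatives changed the scaling, filter, cell minimum, sort, class names, block and mice. Bounds use 3 reads as the limit of a count of 0. Shares were also taken at 100000 reads per cell, without the 168 shallower cells. The test code was also run on simulated counts with known changes. Those counts had the same spread for every gene, so they do not show how the tests behave for receptors read in few cells. Likeness used log2(CPM + 1).

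All 9 receptors are named with levels. The naming rule covered 105 tested differences of receptors with at least 10 CPM in both mice of a group. A fold change and test are printed for only a part of these, so a difference that is not printed may still lie above 10 CPM. Of the 105, 39 changed direction in an alternative. From each list and comparison at most the 4 called genes with the largest fold are named. Members and lists were chosen with earlier results of these data known.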

Additional observations from a re-analysis of the deposited data

Results flagged for a closer look

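Chrm2 had its highest level of the series outside the classes compared, in striated muscle of the P21 female, at 275.7 CPM, where the next highest library held 155 CPM. It came from 16 cells of 1 mouse, of which 4 had a read and 1 gave 61.3% of the reads. Npr3 stood at 53.1 CPM in proliferating myofibroblasts of the hyperoxic female, against 33.2 CPM in the next highest library it was set beside. There 3 of 17 cells had a read and 1 gave 49.0% of the reads. Neither value has a replicate, and both stand out because they lie in data that the comparisons did not use.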

How the results depend on the processing

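With 2 mice per group, few receptor calls were stable. None of the 30 differences called by edgeR or DESeq2 changed direction in the alternatives run (488 fits). Of all 105 differences covered by the naming rule, 39 did so in 82 of 1836 fits. Among the 22 printed differences called by neither tool, 5 did, each when 1 mouse was left out: Npr3 in hyperoxic alveolar fibroblasts ran from -2.292 to 0.075, Agtr2 in hyperoxic adventitial fibroblasts from -0.195 to 1.109, Chrm2 and Ednra in hyperoxic airway smooth muscle from -0.045 to 1.702 and from -0.928 to 0.334, and Tbxa2r in pericytes against vascular smooth muscle at P7 from -0.232 to 0.303. Between ages the count of 0 became 8 with DESeq2 and 1 with no filter or with class names kept apart (Agtr2 in each of these last fits), and it ran from 0 to 2 when 1 mouse was left out. In hyperoxia the count of 0 became 3 with DESeq2 and ran from 0 to 2 when 1 mouse was left out, with 2 (Ednra and Ednrb) without the P1 male. Between classes the count of 2 became 19 with DESeq2, 1 with at least 5 cells per class, and 3 in 1 fit over all groups, an alternative chosen after seeing the data. It ran from 1 to 5 when 1 mouse was left out. For the test of hyperoxia between classes the count of 0 became 1 with DESeq2 and stayed 0 when 1 mouse was left out. Without the replicate block the counts were 1 between ages, 0 in hyperoxia and 5 between classes. Agtr2 in adventitial fibroblasts from P7 to P21 was called in 8 of 19 alternatives (adjusted p 5.55e-07 to 0.287), with 0.028 without the block. Ednrb in myofibroblasts from P1 to P7 was called in 4 of 19 and Chrm2 in airway smooth muscle from P7 to P21 in 3 of 19. A minimum of 20 cells left 10 comparisons of ages and 6 of classes. The cause of these changes was not tested.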
